A study of Mus musculus with 12 samples.

Results

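The genes described are 40 mouse genes whose products carry a cell into and through mitosis, taken by their symbols from a table of 56941 genes. They cover the cyclins and CDK1, the transcription factor FOXM1 and the phosphatase CDC25C, the mitotic kinases, the spindle checkpoint, the proteins that end mitosis, the kinetochore, the spindle motors, the machinery of cytokinesis and the chromosome proteins TOP2A and Ki-67. Each of the 40 symbols had 1 row in the table, and all 40 passed the filter on low counts. The samples were 12 wells of C2C12, a line of mouse myoblasts, and each well gave 1 RNA sequencing library. One line carried the transgene ChR2::tdTomato, a light-gated cation channel joined to a red fluorescent protein, and gave 6 wells, called ChR2 here. The other line was wild type and gave 6 wells. Both lines grew on a fibrin gel 1 mm thick (fibrinogen at 8 mg/mL), first in a serum-rich growth medium for 2 days and then for 6 days in a differentiation medium that held horse serum and IGF-1. Aminocaproic acid was present in both media. The labels mention no light stimulus for these wells, give neither the promoter of the transgene nor whether its line is 1 clone, and name no separate cultures behind the wells. The p-values therefore measure the spread between wells, and the transgene cannot be told apart from any other difference between the 2 lines.

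Mitosis genes are transcribed periodically. Their messages build up in G2, peak as the cell divides and are low in cells that have left the cycle, as myoblasts do when they fuse into myotubes. In resting cells the DREAM complex, built on the MuvB core and the pocket protein p130, sits on the promoters of many of these genes through a short element called the CHR. In dividing cells the same MuvB core instead works with B-MYB and FOXM1, and the trimeric factor NF-Y binds CCAAT boxes nearby.

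The ChR2 wells held 7388761 to 12229458 estimated counts in total, and wild-type wells 1, 3, 4 and 6 held 10268067 to 13628569. Wild-type well 2 had 1061068 and wild-type well 5 had 2809669. In these shallow wells the 7SL RNA, which has no poly(A) tail, took 24.8% and 8.37% of the counts, against at most 0.0341% in the other 10 libraries. The protocol selects poly(A) RNA and adds that samples of low input were depleted of ribosomal RNA instead, without naming them. The counts of called genes are therefore given over all 12 libraries and over the 10 without wild-type wells 2 and 5. Terminal muscle genes were abundant in every well, with 9 markers such as Ckm and Acta1 summing to between 12574 and 23341 CPM (estimated counts per 1e6, on library sizes scaled by edgeR's TMM method). All 5 endothelial markers lay below 1 CPM in every well, as did 3 of 5 macrophage markers and 3 of 4 neuronal markers.

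The mitosis genes were higher in the ChR2 line almost as a whole. In edgeR's quasi-likelihood test with Benjamini-Hochberg adjustment over the 13168 genes tested, 38 of the 40 genes (95%) rose, against 14% of all genes tested. No mitosis gene fell, against 14.1% of all genes. Every one of the 40 log2 fold changes was positive, so none was lower at an unadjusted p under 0.05 or by DESeq2 or limma voom either. A rise of at least 2-fold was called for 37 genes (92.5%), against 5.03% of all genes. Without wild-type wells 2 and 5, 38 genes rose again, against 18.9% of the 13484 genes tested, and 36 genes were called in both fits. The median log2 fold change of the 40 genes was 1.59 over 12 libraries and 1.54 over 10, while the median over all genes tested was -0.02 and 0.

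Of the 40, the genes given by their log2 fold change alone all passed the test over 12 libraries, with standard errors of 0.20 to 0.34 and edgeR adjusted p from 6.99e-05 (Tpx2) to 0.00542 (Ttk). Their levels differed widely. Per transcript length, the mean over the ChR2 wells ran from 5.93 TPM (transcripts per 1e6, which takes length into account) for Knl1 through a median of 33 TPM to 178 TPM for Cks2.

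Values did not overlap between the lines for most of the genes. For 32 genes (80%) the lowest ChR2 well lay above the highest wild-type well, against 8.57% of all genes tested. Over the 10 libraries this held for 33 genes, against 13.7% of all genes. Without wild-type well 6 it held for 39 genes, against 10.5% of all genes. That well was the highest of its line for 38 of the 40 genes. Leaving it out could not lower the count, so the 39 is no further support. The exception without well 6 was Bub3.

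**Figure D1:**
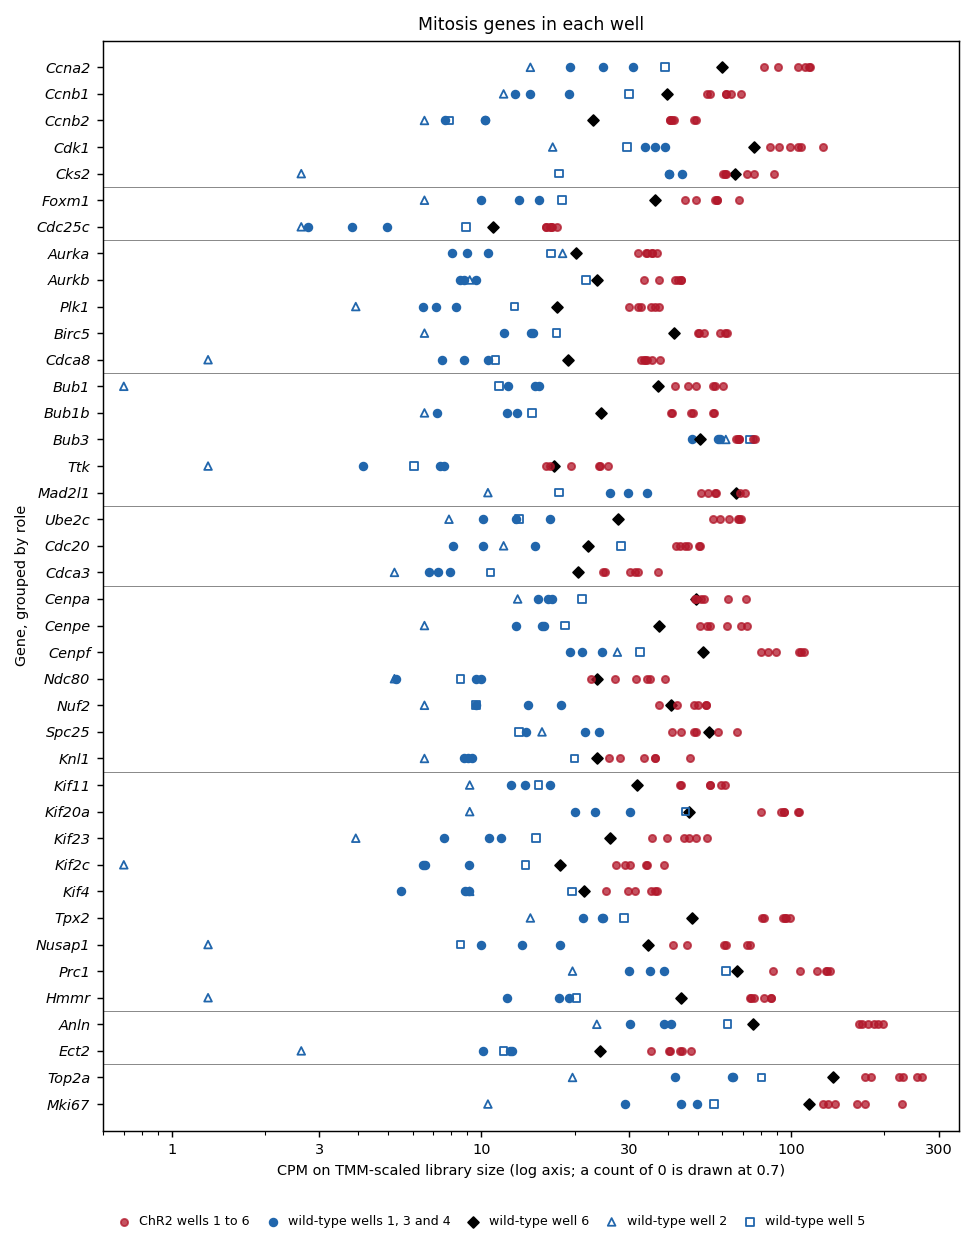
CPM of each of the 40 mitosis genes in each of 12 wells on a log axis, with genes grouped by role and 1 point per well (red, ChR2; blue and black, wild type; counts of 0 drawn at 0.7). The red points lie to the right of every wild-type point for 32 genes, and the black diamond of wild-type well 6 is the rightmost wild-type point for 38 of the 40.

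The wild-type wells were far from alike. Summed over the 40 genes, the ChR2 wells held 2601, 2908, 2747, 2965, 2325 and 2266 CPM in wells 1 to 6. The wild-type wells held 643, 412, 829, 758, 971 and 1670 CPM in the same order. The lowest ChR2 well thus lay above the highest wild-type well, and wild-type well 6 stood between its own line and the ChR2 line. The means were 2635 ± 293 and 881 ± 430 CPM (SD, n = 6 wells each), a ratio of 2.99. With wild-type wells 1, 3, 4 and 6 alone the wild-type mean was 975 ± 469 CPM (SD, n = 4) and the ratio 2.7. As a share of the ChR2 mean, wild-type wells 1 to 6 stood at 24.4%, 15.6%, 31.5%, 28.8%, 36.8% and 63.4%. A lower sum in a bulk sample can come from fewer dividing cells or from less of this RNA in each, and these cannot be told apart here.

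Wild-type well 6 was the deepest library of the 12, and its sum had a 95% Poisson interval of 1648 to 1692 CPM, so the gap to the other wells of its line was larger than counting error. The shallowest, wild-type well 2, held only 314 counts over the 40 genes, and its sum has an interval of 368 to 460 CPM. In that well 11 of the 40 genes had 3 counts or fewer, and Bub1 and Kif2c had none, which allows up to 3.93 CPM for each. These intervals cover counting error only, since the reads were amplified without molecular identifiers.

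**Figure D2:**
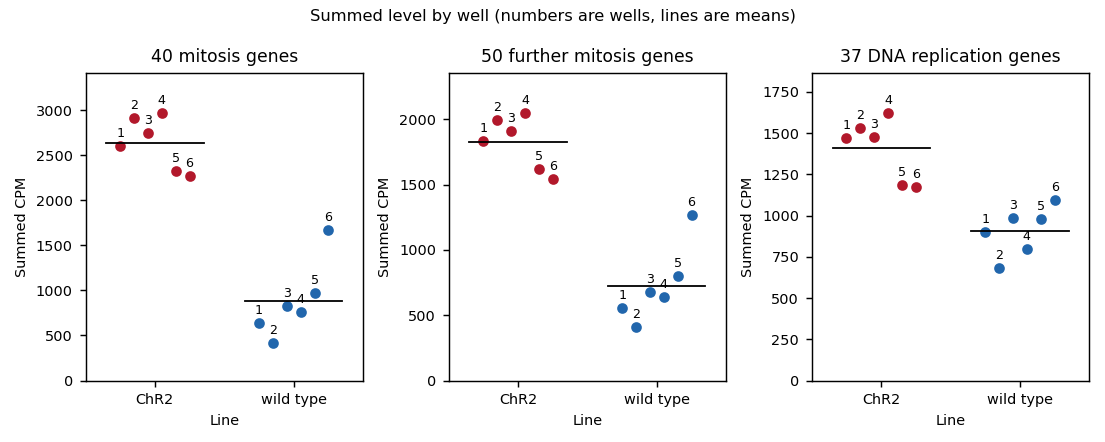
Summed CPM by well for the 40 mitosis genes, for 50 further mitosis genes and for 37 DNA replication genes, with the well number beside each point and a line at the mean of 6 wells. In all 3 panels the ChR2 wells lie above the wild-type wells, and wild-type well 6 is the highest of its line.

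Many promoters of the mitosis genes hold short sequences that were not used to choose the genes. The CHR and CCAAT are elements already known from such promoters, as described above, so their frequency is no independent finding. RefSeq promoters on the mouse build GRCm38.p6, from 250 bases before to 50 after each annotated start, were matched by symbol for 34 of the 40 genes. The genes without an entry were Aurkb, Ccna2, Cdc25c, Foxm1, Kif20a and Tpx2. Stretches are printed for genes of the largest change (Ube2c, Anln and Hmmr) and of the smallest change (Bub3, Cks2 and Spc25) that hold a match, to show how the elements lie. Each was cut from a window set gene by gene, so matches elsewhere in the promoter are not shown. They read 5′ to 3′ on the strand of the gene, and capitals mark each match to CCAAT or to the CHR core TTTGAA on either strand, so that ATTGG is CCAAT and TTCAAA is TTTGAA on the opposite strand.
Ube2c: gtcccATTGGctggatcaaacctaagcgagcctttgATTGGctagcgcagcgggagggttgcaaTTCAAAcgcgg
Anln: tgaaaTTCAAAtTTTGAAcggcc
Hmmr: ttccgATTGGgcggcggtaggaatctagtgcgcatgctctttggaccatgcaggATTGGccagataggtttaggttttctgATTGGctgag
Bub3: tggcgTTCAAAatcagCCAATgatag
Cks2: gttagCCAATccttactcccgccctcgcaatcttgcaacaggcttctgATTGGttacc
Spc25: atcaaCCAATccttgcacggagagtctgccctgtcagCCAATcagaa

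The Ube2c stretch is chr2:164769836-164769910 on the plus strand and lies from 93 to 19 bases before the start. It holds a pair of CCAAT boxes in the same orientation followed by a CHR core, and the whole promoter holds 6 CCAAT matches. The Anln stretch is chr9:22389168-22389190 on the minus strand, within the first exonic bases from base 17 to base 39. It holds 2 CHR cores on opposite strands, pointing away from each other, with 1 base between them. The whole promoter of Anln holds no CCAAT match. Hmmr at chr11:40733448-40733538 on the minus strand holds 3 CCAAT boxes and no CHR core in the stretch shown. Its whole promoter holds 5 CCAAT matches and a CHR core, which lies outside the stretch at base 9 after the start. The same elements occur among the genes of small change, though not both in each. Mad2l1 also changed little (0.85) and held no match, so no stretch of it is printed. Bub3 at chr7:131560322-131560347 on the plus strand has a CHR core beside a CCAAT box, and its whole promoter holds 2 CCAAT matches. Cks2 at chr13:51645162-51645219 on the plus strand and Spc25 at chr2:69206227-69206273 on the minus strand have 2 CCAAT boxes each in the stretches shown. The whole promoter of Cks2 holds 4 CCAAT matches and no CHR core. Spc25 has a CHR core outside its stretch, at base 25 after the start. CCAAT and the CHR core thus occur in genes of both kinds.

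Counted over genes, 26 of 34 (76.5%) held TTTGAA on either strand, against 20.2% of the 27025 genes in the table. CCAAT on either strand was also found in 26 of 34 (76.5%), against 41.1% of all genes, and 2 or more CCAAT matches in 20 genes (58.8%), against 13.3%. Both motifs stood in 22 genes (64.7%), against 8.97%. The E2F motif TTCCCGCC, on either strand, was found in 0 of the 34, against 2.52% of all genes. Among the further mitosis genes described below, 41 were matched to a promoter. Of these, 25 (61.0%) held TTTGAA, 27 (65.9%) CCAAT, 16 (39.0%) 2 or more CCAAT matches and 2 (4.88%) the E2F motif. TTTGAA and CCAAT were thus common in other mitosis genes too, at shares between those of the 34 and of all genes. The differences between these sets were not tested. Birc5, Mad2l1, Nuf2 and Nusap1 held neither TTTGAA nor CCAAT in this window. Matches to different motifs may share end bases, and a match is a description of the sequence and not a bound site.

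The elements differed in where they lay. Over the 37 promoters of these genes, the median of 36 CHR matches lay 2 bases after the start, and 52.8% of them lay after it, against 11.2% of matches in all promoters. The 72 CCAAT matches had a median position of -67.5 relative to the start, and 65.3% lay within 100 bases before it, against 43.6% in all promoters. Bub3, Ect2 and Prc1 have 2 annotated starts, whose windows share matches.

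**Figure D3:**
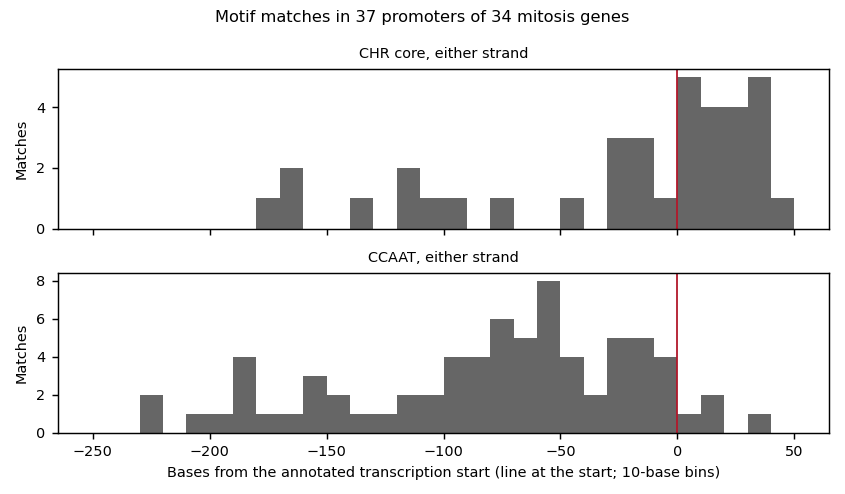
Number of matches to the CHR core (upper panel) and to CCAAT (lower panel) on either strand by distance from the annotated start, in bins of 10 bases, over 37 promoters of 34 mitosis genes. Most CHR matches lie at or after the start (52.8% after it), whereas 65.3% of the CCAAT matches lie within 100 bases before it.

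Among the cyclins and CDK1, 4 of 5 genes rose. Ccnb1 encodes cyclin B1, the partner that activates CDK1 at the entry into mitosis. It ran from 53.5 to 69.1 CPM (median 61.8) in the ChR2 wells and from 11.8 to 39.7 CPM (median 16.8) in the wild-type wells. The ranges did not overlap, and the log2 fold change was 1.47 (SE 0.25, edgeR adjusted p = 0.000878). Its estimated counts were not whole in 7 wells, against at most 3 wells for any other of the 40 genes, and the cause was not tested. Ccnb2, the second B-type cyclin, had the largest change of the group at 1.89 (SE 0.24, edgeR adjusted p = 0.000128). Ccna2, whose cyclin A2 acts in S phase and early mitosis, changed by 1.65 on the log2 scale, and Cdk1, the kinase itself, by 1.34.

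Cks2, a small subunit that binds CDK1 and helps it find its substrates, did not pass the test. It ran from 60.4 to 88.3 CPM (median 66.9) in the ChR2 wells and from 2.62 to 66.1 CPM (median 40.4) in the wild-type wells. Wild-type well 6 lay inside the ChR2 range, and wild-type well 2 held 2.32 estimated counts. The log2 fold change was 0.86 (SE 0.32, edgeR adjusted p = 0.0576). Over the 10 libraries it was smaller but more even, at 0.56 (SE 0.16, edgeR adjusted p = 0.0154), and the gene passed. In TPM it was the most abundant of the 40 in the ChR2 line, with 178 ± 18 (SD, n = 6).

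FOXM1 and CDC25C act just before mitosis. Foxm1 encodes the forkhead factor that drives G2 and M genes, and it ran from 45.6 to 68.2 CPM (median 57.2) in the ChR2 wells against 6.55 to 36.4 CPM (median 14.3) in the wild-type wells. It rose by 1.65 on the log2 scale (SE 0.27, edgeR adjusted p = 0.000772). Cdc25c, whose phosphatase removes the inhibitory phosphates from CDK1, was the most even of the 40 across the ChR2 wells, at 16.2 to 17.5 CPM with a coefficient of variation of 2.86%. In the wild-type wells it ran from 2.62 to 10.9 CPM, with no overlap, and the log2 fold change was 1.5 (SE 0.28, edgeR adjusted p = 0.00157).

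All 5 genes of the mitotic kinases and the chromosomal passenger complex rose, with no overlap for any of them. Plk1, the polo-like kinase that acts from mitotic entry to cytokinesis, ran from 29.9 to 37.5 CPM (median 34) in the ChR2 wells and from 3.93 to 17.6 CPM (median 7.72) in the wild-type wells. Its log2 fold change was 1.77 (SE 0.24, edgeR adjusted p = 0.000176). Aurora A, which builds the spindle poles, is encoded by Aurka, which changed by 1.41. Aurora B corrects faulty attachments as part of the passenger complex, and its gene Aurkb changed by 1.57. Its partners survivin (Birc5) and borealin (Cdca8) changed by 1.54 and 1.68.

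The spindle checkpoint was the least uniform group. Of its 5 genes 4 rose, but only 2 had no overlap between the lines over 12 libraries, Bub1 and Bub1b. Bub1b encodes BUBR1, which holds the APC/C activator CDC20 in check. It ran from 40.9 to 56.6 CPM (median 47.8) in the ChR2 wells and from 6.55 to 24.3 CPM (median 12.5) in the wild-type wells, a log2 fold change of 1.81 (SE 0.24, edgeR adjusted p = 0.000161). Its kinase partner gene Bub1 changed by 1.59, and Ttk, which encodes the MPS1 kinase that starts the signal, by 1.35.

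Bub3 had the smallest log2 fold change of the 40 and did not pass the test over 12 libraries. Its product carries BUB1 and BUBR1 to the kinetochore. It ran from 66.4 to 76.4 CPM (median 67.7) in the ChR2 wells and from 47.8 to 73.9 CPM (median 58.5) in the wild-type wells. The only wild-type well inside the ChR2 range was well 5. The log2 fold change was 0.27 (SE 0.12, edgeR adjusted p = 0.0895) over 12 libraries and 0.40 (SE 0.09, edgeR adjusted p = 0.00361) over 10, where the lines did not overlap. Its promoter stretch holds a CHR core beside a CCAAT box, 2 motifs found together in 22 of the 34 genes matched. Bub3 made up 2.33% to 2.97% of the summed CPM of the 40 genes in the ChR2 wells and 3.04% to 9.01% in wild-type wells 1, 3, 4 and 6.

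Mad2l1 encodes MAD2, the checkpoint protein that binds CDC20. It ran from 51.2 to 70.9 CPM (median 57.1) in the ChR2 wells and from 10.5 to 66.5 CPM (median 28.0) in the wild-type wells. Wild-type well 6 was the 66.5 and stood at 111% of the ChR2 mean, the highest share of any of the 40 genes in that well. The log2 fold change was 0.85 (SE 0.27, edgeR adjusted p = 0.0309) over 12 libraries. The call was lost over the 10 libraries, at 0.62 (SE 0.24, edgeR adjusted p = 0.0693). Leaving out a single library, be it ChR2 well 2, 3 or 4 or wild-type well 1, 3, 4 or 5, ended the call too, with edgeR adjusted p up to 0.0687, whereas without wild-type well 6 the log2 fold change was 1.21 with an edgeR adjusted p of 0.0005. As a share of the summed CPM, Mad2l1 held 2.08% to 2.39% in the ChR2 wells and 3.93% to 4.12% in wild-type wells 1, 3, 4 and 6, but 2.55% in well 2 and 1.84% in well 5. Its share was thus larger in the 4 deep wild-type wells than in any ChR2 well, and in shallow well 5 it was smaller.

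The 3 genes linked to the anaphase-promoting complex (APC/C), the ubiquitin ligase that ends mitosis, all rose without overlap. Ube2c encodes UBCH10, the enzyme that hands ubiquitin to the complex, and it had the largest change of the 40. Its ChR2 wells held 67.4, 59.0, 67.9, 68.8, 56.0 and 63.2 CPM in wells 1 to 6. Its wild-type wells held 12.9, 7.86, 16.7, 10.1, 13.2 and 27.6 CPM. Wild-type well 6 was again the highest of its line and lay under the lowest ChR2 well. This is the gene whose printed stretch holds a pair of CCAAT boxes and a CHR core. Whether such motifs go with the size of a change was not tested. The log2 fold change was 2.02 (SE 0.22, edgeR adjusted p = 4.02e-05) over 12 libraries and 1.93 (SE 0.24, edgeR adjusted p = 0.000162) over 10. Cdc20, the activator of the complex, changed by 1.57 and was 1 of 2 genes whose highest wild-type well was not well 6. Cdca3, which promotes entry into mitosis, changed by 1.54.

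The kinetochore and centromere genes rose in 7 of 7 cases over 12 libraries and in 6 of 7 over 10, and 3 had no overlap. Cenpf, a large protein of the outer kinetochore, ran from 80.1 to 110 CPM (median 97.7) in the ChR2 wells and from 19.4 to 52.1 CPM (median 26.0) in the wild-type wells. It had the largest change of the group at 1.70 on the log2 scale (SE 0.22, edgeR adjusted p = 0.000128). The motor CENP-E, which brings chromosomes to the spindle equator, changed by 1.65, and the scaffold gene Knl1 by 1.37. The histone variant gene Cenpa, which marks the centromere, changed by 1.28.

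Ndc80, Nuf2 and Spc25 encode subunits of one complex, NDC80, which grips the microtubule. Their log2 fold changes were 1.49, 1.39 and 1.03, and each overlapped through wild-type well 6 alone. Spc25 ran from 41.3 to 66.9 CPM (median 49.1) in the ChR2 wells and from 13.2 to 54.5 CPM (median 18.7) in the wild-type wells. The value of 54.5 was well 6, at 106% of the ChR2 mean. The test gave an adjusted p of 0.0178 for Spc25 by edgeR (SE 0.29), and the call was lost over the 10 libraries (log2 fold change 0.85, SE 0.34, edgeR adjusted p = 0.0744).

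**Figure D4:**
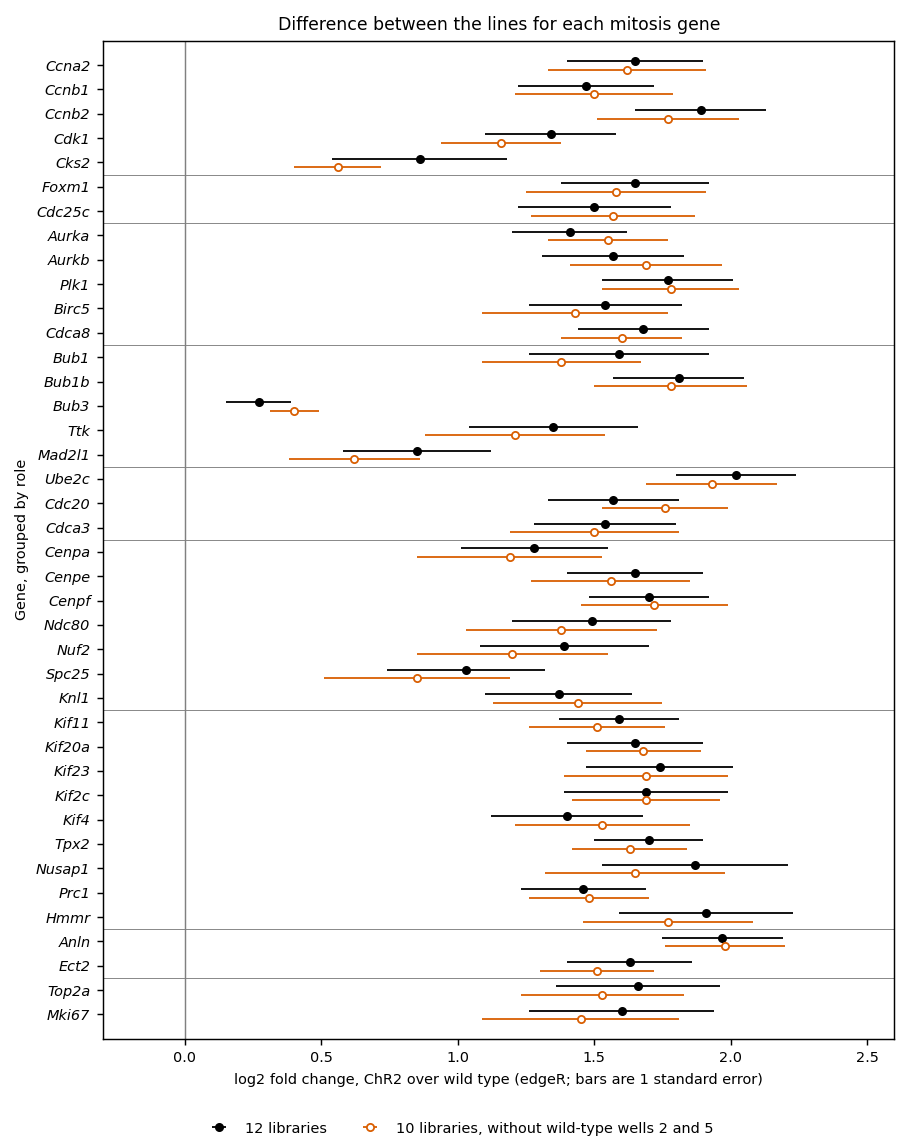
Log2 fold change of ChR2 over wild type for each of the 40 genes from edgeR, with bars of 1 standard error, over 12 libraries (black) and over the 10 without wild-type wells 2 and 5 (orange). All estimates lie to the right of 0, between 0.27 for Bub3 and 2.02 for Ube2c over 12 libraries.

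All 9 genes of the kinesins and the spindle rose without overlap, with log2 fold changes from 1.40 to 1.91. Kif11 encodes the motor that pushes the spindle poles apart. It ran from 43.8 to 61.3 CPM (median 54.7) in the ChR2 wells and from 9.17 to 31.9 CPM (median 14.6) in the wild-type wells, a log2 fold change of 1.59 (SE 0.22, edgeR adjusted p = 0.000239). Tpx2, which activates Aurora A on the spindle, changed by 1.70 with the second smallest standard error of the 40 (0.20). Hmmr, a spindle assembly factor, ran from 73.6 to 86.4 CPM (median 78.7) in the ChR2 wells and from 1.31 to 44.2 CPM (median 18.5) in the wild-type wells. Its lowest wild-type value was a single count in well 2, and its log2 fold change was 1.91 (SE 0.32, edgeR adjusted p = 0.000768).

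The remaining motors and microtubule proteins moved by similar amounts. Kif20a, Kif23 and Prc1 organise the central spindle between the separating chromosomes, and they changed by 1.65, 1.74 and 1.46 on the log2 scale. Kif2c, which takes microtubules apart at the centromere, changed by 1.69, the chromosome motor gene Kif4 by 1.40 and the microtubule bundler gene Nusap1 by 1.87.

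Both cytokinesis genes rose. Anln encodes anillin, which ties the contractile ring to the cell cortex. It ran from 166 to 199 CPM (median 181) in the ChR2 wells and from 23.6 to 75.4 CPM (median 40) in the wild-type wells. Its log2 fold change was 1.97 (SE 0.22, edgeR adjusted p = 5.01e-05), and in wild-type well 6 it stood at 41.6% of the ChR2 mean, the lowest share of the 40. This is the gene with 2 CHR cores just after its start, and a link between motifs and the size of a change was not tested. Ect2, the exchange factor that switches on RhoA at the ring, changed by 1.63 (SE 0.23, edgeR adjusted p = 0.000311).

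Top2a and Mki67 mark dividing cells in histology. Top2a encodes the topoisomerase that untangles sister chromosomes. It ran from 174 to 265 CPM (median 227) in the ChR2 wells and from 19.7 to 137 CPM (median 64.8) in the wild-type wells. Its log2 fold change was 1.66 (SE 0.30, edgeR adjusted p = 0.00127). Mki67 encodes Ki-67, which coats mitotic chromosomes and keeps them apart. It ran from 127 to 229 CPM (median 152) in the ChR2 wells and from 10.5 to 114 CPM (median 47) in the wild-type wells, again without overlap. It had the widest spread of the 40 within the ChR2 line (coefficient of variation 23.6%) and a log2 fold change of 1.60 (SE 0.34, edgeR adjusted p = 0.00355).

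Wild-type well 6 did not stand at one level for all roles. Relative to the mean of the ChR2 wells, its 40 genes had a median of 61.0% and ran from 41.6% for Anln to 111% for Mad2l1. By role, the median was lowest for the APC/C genes (47.4%) and cytokinesis (49.5%), and highest for the checkpoint (72.5%) and the kinetochore and centromere (74.6%). Over 80% of the ChR2 mean were 6 genes, Ttk, Nuf2, Cenpa, Cks2, Spc25 and Mad2l1. In the other deep wild-type wells the medians over the 40 genes were 20.9% (well 1), 28.5% (well 3) and 25.7% (well 4), and Bub3, Cks2 and Mad2l1 were the 3 highest genes in each of these. The differences between roles rest on 2 to 9 genes each and on 1 well, and were not tested.

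**Figure D5:**
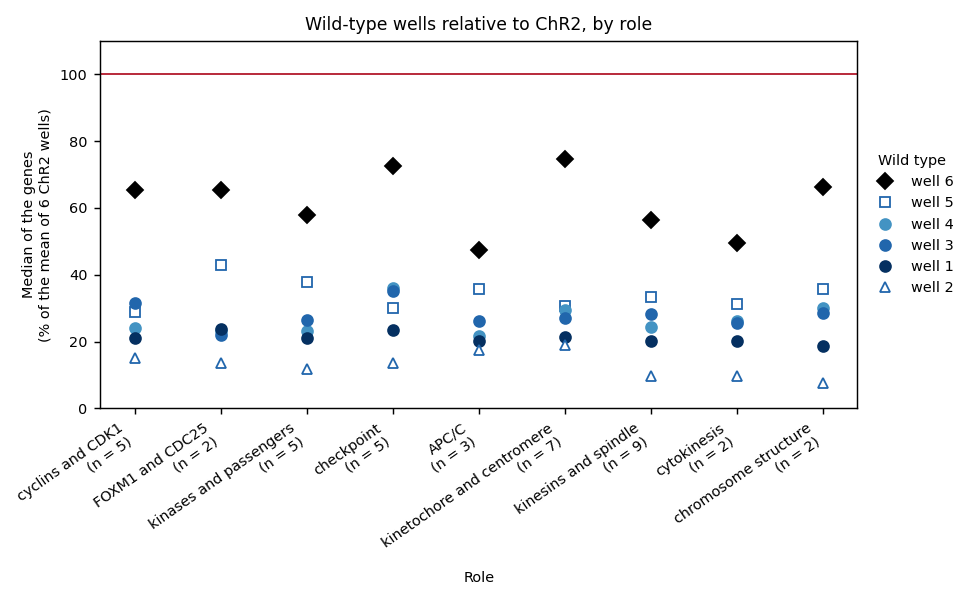
Median level of the genes of each role in each wild-type well, as a percent of the mean of the 6 ChR2 wells (red line at 100), with the number of genes under each role. Well 6 (black diamonds) lies above the other wells of its line for every role, from 47.4% for APC/C to 74.6% for the kinetochore and centromere.

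The spread between the wild-type wells rested largely on well 6. The coefficient of variation over the 6 ChR2 wells had a median of 13.4% across the 40 genes and a range of 2.86% to 23.6%. Over wild-type wells 1, 3, 4 and 6 its median was 53.9%, with a range of 10.2% to 68.5%, and it exceeded the ChR2 value for 40 of 40 genes. Over wells 1, 3 and 4 alone the median was 16.7% and the range 2.67% to 31.7%, and the value exceeded that of the ChR2 line for 29 genes and lay below it for 11. Leaving out wild-type well 6 raised the median log2 fold change of the genes from 1.59 to 1.95. That well was the highest of its line for 38 of the 40. Neither this increase nor the smaller spread without well 6 is therefore further support.

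Other genes of mitosis followed the same direction. In a list of 50 further cell-cycle-regulated mitosis genes, such as condensin subunits, shugoshins and centromere proteins, 49 rose and 0 fell by edgeR. All 50 were higher at an unadjusted p under 0.05. DESeq2 called 49 higher and 0 lower. Over the 10 libraries 48 rose and none fell. Of all genes tested, 14% rose over 12 libraries and 18.9% over 10. The median log2 fold change was 1.31 over 12 libraries and 1.23 over 10. The largest rises were those of Nek2, a centrosome kinase (1.84, SE 0.23, edgeR adjusted p = 0.000103), and Pimreg (1.73). Mybl2, which encodes B-MYB, was the gene not called, with a log2 fold change of 0.62 (edgeR adjusted p = 0.0834), though it passed over the 10 libraries (0.88, edgeR adjusted p = 0.00644).

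Partners of these genes that are made throughout the cycle had medians nearer to 0, a gap to the mitosis genes that was not tested. Of 16 APC/C genes (core subunits, an activator and the ubiquitin enzyme gene Ube2s), 4 rose and 1 fell, with a median log2 fold change of 0.18. Ube2s was among the 4 (0.49, edgeR adjusted p = 0.00628). Anapc5 rose by 0.5 (edgeR adjusted p = 0.00572) and Anapc15 by 0.51 (edgeR adjusted p = 0.0298), and Anapc7 fell by 0.53 on the log2 scale (edgeR adjusted p = 0.0139). Of 10 cohesin genes, which hold sister chromosomes together, 3 rose and 1 fell, with a median of 0.10. Smc1a, a subunit of the ring, had the largest rise at 0.82 (edgeR adjusted p = 0.00315), Rad21 followed at 0.42 (edgeR adjusted p = 0.0369), and Mau2, part of the loader, fell by 0.47 (edgeR adjusted p = 0.00977). Over all genes 14% rose and 14.1% fell, and nothing particular to either list is read from these counts. Over the 10 libraries, where 18.9% of all genes rose and 16.3% fell, the counts were 5 and 1 for the APC/C and 4 and 2 for cohesin.

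Of 20 regulators of these promoters, 5 rose and 4 fell, with a median of 0.01, against 14% and 14.1% of all genes. The fit over 10 libraries called 6 higher and 4 lower, against 18.9% and 16.3%. Nothing particular to the list is read from these counts. E2f7 rose by 1.08 (SE 0.24, edgeR adjusted p = 0.00466) and E2f1 by 0.79 (SE 0.16, edgeR adjusted p = 0.00297). E2f2, a further member of the family, went the other way. It held 61.0 ± 20.4 CPM in the wild-type wells and 18.9 ± 4.96 CPM in the ChR2 wells (SD, n = 6 each). Its log2 fold change was -1.66 (SE 0.23, edgeR adjusted p = 0.000206). Lin37, a MuvB subunit, fell by 0.64 on the log2 scale (edgeR adjusted p = 0.0122). Over the 10 libraries E2f2 still fell, by 1.37 on the log2 scale (edgeR adjusted p = 0.000229), and the log2 fold changes of E2f7, E2f1 and Lin37 were 1.07, 0.95 and -0.55, with edgeR adjusted p of 0.0107, 0.00017 and 0.0143.

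DNA replication genes, which are used one phase earlier, rose in 19 of 37 cases and fell in 0 by edgeR, against 14% and 14.1% of all genes. With wild-type wells 2 and 5 left out, 21 rose and 0 fell, against 18.9% and 16.3%. Over 12 libraries the counts at an unadjusted p under 0.05 were 25 and 0, and DESeq2 called 21 and 0. Their median log2 fold change was 0.61 (0.68 over the 10 libraries), below the 1.59 of the mitosis genes, and this gap between lists was not tested. Thymidine kinase (Tk1) changed by 1.25 (SE 0.24, edgeR adjusted p = 0.00197) and the polymerase subunit gene Pola1 by 1.19 (SE 0.19, edgeR adjusted p = 0.000522). The summed level ran from 1175 to 1620 CPM in the ChR2 wells and from 683 to 1093 CPM in the wild-type wells, a ratio of the means of 1.56. Wild-type well 6 was the highest of its line here too, at 1093 CPM.

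Markers of the cells that such a culture could hold were read beside these results. By edgeR, 14% of all genes tested rose and 14.1% fell over 12 libraries, and 18.9% and 16.3% over 10. Of 9 terminal muscle markers 0 rose and 2 fell by edgeR, with counts of 0 and 2 at an unadjusted p under 0.05 as well, while limma voom called 1 higher. The counts were again 0 and 2 over the 10 libraries. The genes that fell were Myog, the factor of early differentiation (log2 fold change -0.84, edgeR adjusted p = 0.00219), and Ttn, the sarcomere gene titin (-2, edgeR adjusted p = 0.00601, and -0.79 over the 10 libraries). Their sums overlapped, at 13433 to 18338 CPM in the ChR2 wells and 12574 to 23341 CPM in the wild-type wells, and well 6 held 21786 CPM. Of 6 myoblast markers 1 rose and 3 fell, and over the 10 libraries only 2 falls were called, those of Cdh15 and Megf10. Myf5 rose by 0.80 (edgeR adjusted p = 0.0266), a call lost over the 10 libraries (0.60, edgeR adjusted p = 0.0663), and Cdh15 fell by 0.55 on the log2 scale (edgeR adjusted p = 0.00919). Des, the intermediate filament gene, fell by 0.63 (edgeR adjusted p = 0.0482), and that call was lost over the 10 libraries too (-0.29, edgeR adjusted p = 0.112). The myoblast sum ran from 2415 to 2733 CPM in the ChR2 wells and from 2339 to 6488 CPM in the wild-type wells. The 6488 was shallow well 2, and the highest of wild-type wells 1, 3, 4 and 6 was 3626 CPM. Des made up most of the sum, with a mean of 2025 of 2544 CPM in the ChR2 wells and 3135 of 3772 CPM in the wild-type wells. The part of these muscle and myoblast markers in the rise of the mitosis genes was not tested.

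Of 7 fibroblast markers 5 were tested, 2 rose and none fell by edgeR, with 3 and 0 at an unadjusted p under 0.05. The edgeR shares over all genes tested were 14% and 14.1% over 12 libraries, and 18.9% and 16.3% over 10. The markers that rose were Col3a1, a fibrillar collagen (0.86, edgeR adjusted p = 0.0341), and Fbln1 (0.95, edgeR adjusted p = 0.00886). Both were called over the 10 libraries too, with edgeR adjusted p of 0.0222 and 0.0179. Lum and Thy1 lay below 1 CPM in every well. The fibroblast sum ran from 2788 to 3418 CPM in the ChR2 wells and from 740 to 3209 CPM in the wild-type wells. Wild-type well 6, the highest of its line in mitosis genes, held 1811 CPM and lay within the range of its line. The part of these genes in the result was not tested. Map2, the one neuronal marker tested, rose by 1.23 (SE 0.14, edgeR adjusted p = 6.83e-05) and by 1.18 over the 10 libraries, while Rbfox3, Snap25 and Syt1 stayed below 1 CPM.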

How the data were processed

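Per the labels' protocols, libraries were made from poly(A) RNA (14 PCR cycles), except that low-input samples, not named, were ribodepleted; reads were 50-base pairs. The authors deposited estimated counts per gene, which need not be whole, and TPM values for the same genes. The submitters' processing notes name Salmon, STAR, bedtools 2.25.0 and BWA 0.7.12-r1039 with the builds mm10, hg19 and GRCm39; their roles and the build of the tables are not given in the sources used here. Groups came from the genotype label and well numbers from the titles. All sample columns were used.

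Estimated counts were rounded to whole numbers, filtered by filterByExpr (minimum count 10), scaled by TMM and tested with edgeR 4.0.16 (quasi-likelihood, robust, genotype as the only term) in R 4.3.3, with a Benjamini-Hochberg adjusted p under 0.05 over all genes tested as the threshold. DESeq2 1.42.0 and limma 3.58.1 gave alternatives, as did other scalings and filters, a replicate block, and each library left out. The setting of at least 5 CPM in 6 libraries and the coefficients of variation without wild-type well 6 were chosen after the data were seen. The 40 genes and all lists were chosen with earlier results of these data known, so a list's direction is no independent evidence. Named genes were all 40 and, from each other list described, up to 2 called genes with the largest rise and 2 with the largest fall. Mybl2, the markers below 1 CPM and any gene named as an example of a list are given besides.

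Tested on simulated data, the fit over 12 libraries (13017 genes) found 15.2% of the changes of 1.5-fold, 76.1% of those of 2-fold and 95.1% of those of 4-fold, with 4.03% of its calls false. Over 10 libraries (13292 genes) the shares were 54.5%, 81.8% and 100%, with 4.91% false. The simulation changed 200 genes, far fewer than the 1838 and 1863 called in the data, so these rates need not hold there. No pair of wells of 1 line agreed within sampling noise (lowest chi-square per degree of freedom 5.09 over 30 pairs). Estimated counts were called whole within 0.01. Motifs were searched by script in RefSeq promoters. The promoter sequences come from GRCm38.p6 and no coordinates come from the deposited tables. Figures were drawn with matplotlib 3.10.9.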

Additional observations from a re-analysis of the deposited data

Results flagged for a closer look

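In 8 of 82 groups of 6 wells tested, 1 well lay far from the other 5 of its line, by a gap of over 0.625 of the group's whole range; chance gives about 1 in 20. The groups were the 40 mitosis genes and their sum, each taken in either line, and no other genes were screened. All 8 flags fell on wild-type well 6, each for a single gene. Its level was 23.0 CPM for Ccnb2, 42.0 CPM for Birc5, 20.5 CPM for Cdca3, 49.4 CPM for Cenpa, 23.6 CPM for Ndc80, 41.1 CPM for Nuf2, 54.5 CPM for Spc25 and 31.9 CPM for Kif11. The gap as a share of the range was 0.771, 0.692, 0.643, 0.781, 0.739, 0.667, 0.737 and 0.67 in the same order. These genes share 1 library, so the 8 are not independent. The same well held the largest total count of the 12, the highest share of mitochondrial counts (4.52%, against 0.139% to 3.26% elsewhere), and 0.00163% of 7SL RNA, the lowest of the 12. Their part in its level was not tested.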

How the results depend on the processing

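Over 24 other settings, 912 of 960 combinations of a mitosis gene and a setting kept direction and call, 37 lost the call, 11 gained it and 0 reversed. The lowest log2 fold change of any of the 40 genes in any setting was 0.22. The number of mitosis genes called higher was 37 to 39 with each library left out in turn, 36 without a filter and 40 by DESeq2 and limma voom, but 23 with limma on log2(TPM + 0.1) and 28 with limma on log2(TPM + 1) without a filter. Over all genes, calls of higher and lower were 1838 and 1863. They were 592 and 28 on log2(TPM + 1), 254 and 17 on log2(TPM + 0.1), and 402 and 23 on log2(TPM + 1) without a filter; limma voom called 2810 higher. The TPM settings moved the median log2 fold change of all genes to 0.35, 0.43 and 0.08, and that of the mitosis genes to 1.94, 2.17 and 1.94. With the replicate number as a block, 38 mitosis genes stayed called higher with a median of 1.74, and 1171 genes were called lower. The well numbers were not shown to pair wells: correlations between same-numbered wells ran from -0.144 to 0.0954, and 1 of 6 was the best of its well. Cks2 gained its call without wild-type well 2 (edgeR adjusted p = 0.0296) or well 6 (0.0167), and Bub3 without well 5 (0.017). The filter of at least 1 CPM in 6 libraries kept the same 13168 genes. Depth limits wild-type well 2, where 1 count stands for 1.31 CPM.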
